A study of Mus musculus with 24 samples.

Results

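The box H/ACA small nucleolar RNAs of the mouse whose symbols begin with Snora, other than Snora21, were followed through 24 small RNA libraries. The members were every row of the deposited count file that the GENCODE M21 annotation lists as a snoRNA with such a symbol. This gave 41 gene identifiers under 39 symbols, since Snora16a and Snora43 have 2 identifiers each, of 55335 genes in all. The study profiled embryonic stem cells of the mouse (mESC) and the neural progenitors (NPC) made from them, with 6 genotypes of Htt, the Huntington's disease gene. The genotypes were wild type (WT), Htt knockout (KO) and 4 heterozygous lines with CAG repeats knocked into one allele (Q20, Q50, Q92 and Q111), so each knock-in line also carries a normal allele. The line titled Q92 has 89 repeats in the growth protocol. The mESC were kept with leukemia inhibitory factor on gelatin with irradiated mouse fibroblast feeders, and the NPC were grown with FGF and EGF on laminin. Each of the 12 groups had 2 libraries, which the series calls biological samples. The labels do not say whether the 2 came from separate lines or clones, so p-values measure the spread between these libraries, which may be of 1 line.

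Box H/ACA snoRNAs guide the conversion of uridine to pseudouridine in ribosomal and spliceosomal RNA. Each folds into a pair of hairpins joined by a hinge with the H box (ANANNA) and ends in the ACA box shortly before its 3′ end, and is held by the pseudouridine synthase dyskerin with Nop10, Nhp2 and Gar1. Most mammalian members are cut out of the introns of host genes, many of which encode ribosomal or other translation proteins. A few have other roles: the RNAs of Snora73a and Snora73b, known as U17 or E1, take part in the cleavage of precursor ribosomal RNA.

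The sequences below are those of the most abundant member (Snora31), of those with the largest called rises in NPC (Snora47 and Snora78) and of the paralogs Snora73a and Snora73b. They are GENCODE M21 transcripts on GRCm38, printed 5′ to 3′ on the RNA's strand. Capitals mark the H box letters ANANNA where they occur between 40 and 60% of the length, and the ACA near the 3′ end.
Snora31: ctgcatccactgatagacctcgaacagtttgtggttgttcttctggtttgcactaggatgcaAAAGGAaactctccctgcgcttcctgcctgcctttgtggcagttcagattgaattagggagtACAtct
Snora47: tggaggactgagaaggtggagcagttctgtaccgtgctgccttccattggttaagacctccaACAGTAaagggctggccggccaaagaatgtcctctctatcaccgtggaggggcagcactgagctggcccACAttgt
Snora78: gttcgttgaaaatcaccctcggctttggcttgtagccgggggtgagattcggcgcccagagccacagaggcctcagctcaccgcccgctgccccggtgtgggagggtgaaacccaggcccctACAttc
Snora73a: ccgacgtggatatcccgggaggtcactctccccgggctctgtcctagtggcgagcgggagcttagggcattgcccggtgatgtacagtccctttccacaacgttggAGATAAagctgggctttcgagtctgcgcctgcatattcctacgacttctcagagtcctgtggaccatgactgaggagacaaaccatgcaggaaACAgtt
Snora73b: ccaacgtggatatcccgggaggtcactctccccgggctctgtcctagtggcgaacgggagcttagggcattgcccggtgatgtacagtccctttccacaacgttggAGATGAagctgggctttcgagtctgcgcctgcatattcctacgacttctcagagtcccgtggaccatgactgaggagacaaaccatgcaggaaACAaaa
Snora31 lies at chr14:75847905-75848034 (+) in an intron of Tpt1, which encodes a translationally controlled protein. Snora62, also called E2, lies in an intron of the ribosomal protein gene Rpsa. Snora47 is at chr13:95330600-95330737 (+) in an intron of Zbed3. Snora78 is at chr17:24719676-24719803 (-) in an intron of the noncoding gene Snhg9. Snora73a at chr4:132352775-132352979 (-) and Snora73b at chr4:132352322-132352526 (-) both lie in Snhg3, the former overlapping an exon and the latter in an intron. The last pair, both 205 bases long, differ at 7 positions without gaps (96.6% identity).

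The boxes were common to the family. Members were chosen by symbol, not by sequence, but the symbols Snora and Snord name the box class. The contrast below was thus largely given by the choice and is a description, not a test. ACA was found in the last 8 bases of 39 of 41 members, exactly 3 bases from the end in 34, and in 7 of 98 Snord-named genes, which are box C/D snoRNAs. ANANNA between 40 and 60% of the length was found in 37 members and in 32 Snord-named genes. Both occurred together in 35 members and in 0 Snord-named genes. Only the RNA's strand was searched, the places searched do not overlap, and a match is a match of letters. Members were 121 to 205 bases long (median 132), against a median of 84 for Snord-named genes, and the reads were of 50 bases.

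The members held 19574 of 25027120 counts, or 0.0782%, while the Snord-named genes held 38.2% and other snoRNA genes 24.4%. Totals per library were 642384 to 2360434 in mESC and 342022 to 682113 in NPC, of which 623 to 3133 and 228 to 708 fell in members. Htt itself had 1 to 3 counts in the KO libraries and 0 to 9 in the others, too few in small RNA libraries to check the knockout. Of the marker lists, the embryonic stem cell list (microRNAs of the miR-290 and miR-302 clusters and mRNAs) summed to 205 and 240 counts in the Q20 NPC libraries and to 0 or 1 in each of the other 10 NPC libraries. The fibroblast list summed to 0 or 1 count in each mESC library, with 7 genes listed. Neural progenitor genes tested were higher in NPC for 7 of 8.

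Counts were seen for 18 of the 41 identifiers, with a single count in all for Snora15 and for Snora35, so 16 had more than 1. The other 23 had 0 counts in every library, which allows up to 3 counts per library, or 1.36 to 4.23 CPM in mESC and 4.49 to 8.44 CPM in NPC. CPM is the count divided by the TMM-scaled library total, times 1e+06, and these limits cover counting error only. The split followed the annotation around the genes. All 13 members with no base in a same-strand exon of another gene had counts, as did 5 of 8 with some bases in one and 0 of 20 lying wholly in one. Among the 20 were Snora7a in Rpl32, Snora52 in Rplp2, Snora64 in Rps2 and Snora75 in Ncl, the nucleolin gene, named here after their values were seen. Snord-named genes divided alike, with counts in 43 of 57 without such cover, 2 of 4 with some and 0 of 37 with full cover. Of other snoRNA genes, 151 of 1223, 13 of 45 and 1 of 100 had counts, the last being Gm23201 with 487811. Counting was by HTSeq per the submitters' processing notes. Its default leaves a read over exons of several genes uncounted, but the setting used is not given in the sources used here, and its part in these zeros was not tested. Cover by exons of the opposite strand occurred among members only in Snora73a (85.4% of bases) and Snora73b (all bases), both opposite Gm17300. They had 325 and 1173 counts. Such cover was not computed for other snoRNA genes, and with a single locus no general contrast with same-strand cover can be drawn.

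**Figure D1:**
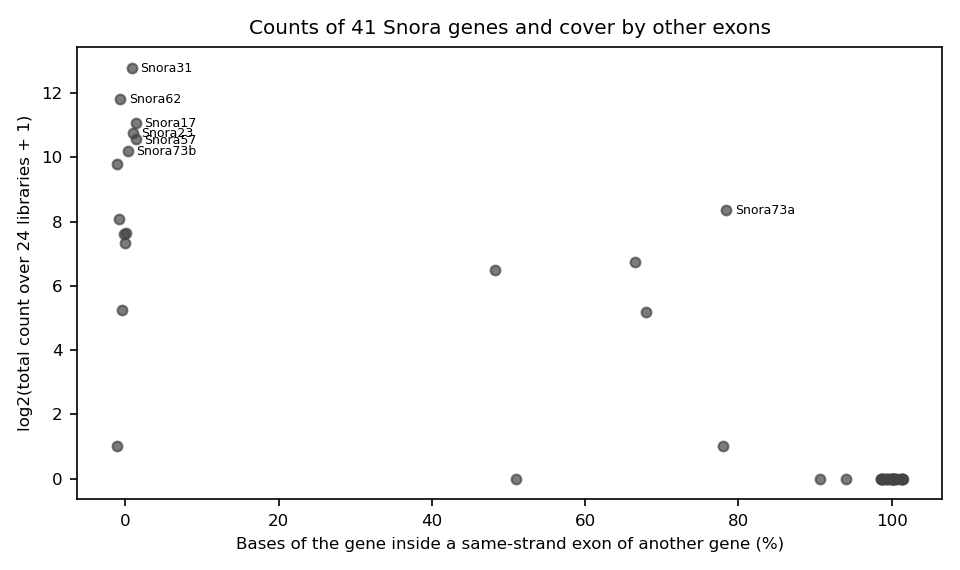
Total count over 24 libraries, as log2(count + 1), against the percentage of each gene's bases inside a same-strand exon of another gene, for 41 Snora genes, with points moved slightly sideways to separate them. The 13 genes without cover all have counts, and the 20 with full cover all lie at 0.

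Levels between members were compared per kilobase of gene length, as mean CPM per kilobase over the 24 libraries. Snora31 led with 2341, followed by Snora62 with 1156, Snora17 with 634, Snora23 with 404, Snora57 with 370, Snora69 with 341 and Snora73b with 238. Snora31 alone held 36.2% of member counts and the 5 members with most counts held 82.3%. A second tier followed: Snora78 with 83.4, Snora41 with 77.7, Snora47 with 68.1, Snora20 with 58.9 and Snora73a with 55.8, with the remaining detected members at 39.5 or below. Of Snora73a, 77.6% lies in a same-strand exon of another gene, and of Snora36b, Snora34, Snora2b and Snora15 between 48.5 and 77.9%. The part of this cover in their levels was not tested. Each member's range over libraries overlapped that of the next in this order: Snora31 ran from 1213 to 4823 CPM per kilobase and Snora62 from 561 to 2027. For Snora17, Snora30, Snora41, Snora57, Snora73a and Snora73b, over 20% of the 30-base stretches also occur in other genes, so their counts are uncertain. For Snora73a this was 50.6% and for Snora73b 47.2%, shared with each other and with 4 genes without a Snora name.

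The first comparison set NPC against mESC, as the mean of the 6 NPC groups minus that of the 6 mESC groups (12 libraries each). Of the 41 members, 13 passed the filter on low counts, and 12 could be tested. Snora36b could not be fitted in this contrast because its Q111 NPC group was at 0. In edgeR's quasi-likelihood test at an adjusted p of 0.05, 9 members were called, 4 higher and 5 lower in NPC. The background was large: 58.4% of 904 genes were called, 30.4% higher and 28.0% lower, so the members' share is near it. With TMM scaling the members moved in both directions, as all genes did. The median log2 change was 0.14 over the 12 tested members, against -0.35 for 41 Snord-named genes, -0.35 for 61 other snoRNAs and -0.02 for all genes. In these bulk libraries, fewer cells of a type and less RNA per cell cannot be told apart.

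Among the members that rose, Snora78 and Snora47 changed most. In mESC, Snora78 ranged from 2.56 to 11.5 CPM (median 5.13), and in NPC from 8.67 to 22.6 CPM (median 15.6). All 12 NPC libraries exceeded the mESC median and 9 exceeded every mESC library. The rise was 1.45 ± 0.23 on the log2 scale (± SE here and below; edgeR adjusted p = 7.7e-06). The Snora78 mean was higher in NPC in 6 of 6 genotypes, but the size varied. It was 5.27 CPM in mESC and 21 in NPC for WT, 9.68 and 12.2 for Q20, and 8.27 and 9.77 for Q111. Snora47 had 1.28 to 6.27 CPM in mESC (median 3.59) and 0 to 32.4 CPM in NPC (median 14.5). Here too 9 of 12 NPC libraries exceeded every mESC library, while Q111 NPC replicate 1 had 0 counts. Its log2 change was 1.81 ± 0.33 (edgeR adjusted p = 6.06e-05), on 1 to 8 counts per mESC library and 0 to 21 per NPC library. The Snora47 mean was also higher in NPC in 6 of 6 genotypes, from 3.89 to 24.9 CPM in WT but from 3.77 to 4.57 in Q111. Snora69, in an intron of the ribosomal protein gene Rpl39, had a median of 28 CPM in mESC (15.8 to 70.5) and 49.5 in NPC (29.5 to 105). The ranges overlapped and all 12 NPC libraries were above the mESC median, with a log2 change of 0.79 ± 0.22 (edgeR adjusted p = 0.00401). Snora62 had 83.6 to 265 CPM in mESC (median 142) and 93.5 to 302 in NPC (median 212). Its log2 change was 0.45 ± 0.15 (edgeR adjusted p = 0.0119), the smallest among the called members. Its mean was higher in NPC in 4 of 6 genotypes and lower in Q50 (235 CPM in mESC and 225 in NPC) and Q111 (132 and 99.4).

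Of the members that fell, Snora73a changed most. Its level was 11.2 to 23.4 CPM in mESC (median 17.8) and 0 to 15.6 CPM in NPC (median 4.53). In 11 of 12 NPC libraries it lay below every mESC library, the exception being Q20 NPC replicate 1 with 15.6 CPM. The log2 change was -1.61 ± 0.27 (edgeR adjusted p = 2.16e-05), on 0 to 9 counts per NPC library. Without the Q20 libraries, whose NPC held stem cell markers, it was -1.95 (edgeR adjusted p = 3.34e-05). Its paralog Snora73b went from a median of 64.9 CPM in mESC (25.1 to 101) to 36.7 in NPC (15.5 to 50.9), a log2 change of -0.79 ± 0.23 (edgeR adjusted p = 0.00466). All 12 NPC libraries were below the mESC median for both paralogs. The difference between the paralogs' changes was not tested.

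The other 3 called lower were Snora17, Snora41 and Snora57. Like Snora73a and Snora73b, they have over 20% of their 30-base stretches in other genes, so every called fall rests on uncertain counts. The members called higher (Snora78, Snora47, Snora69 and Snora62) share 0% of their stretches. The part of shared stretches in the falls was not tested. Snora17, with no annotated host, had 70 to 152 CPM in mESC (median 102) and 34.3 to 94.8 in NPC (median 60.4), a log2 change of -0.70 ± 0.16 (edgeR adjusted p = 0.000814), with 7 NPC libraries below every mESC library. Snora41, in an intron of Eef1b2 (a translation elongation factor subunit), went from a median of 11.1 to 6.89 CPM. Its log2 change was -0.92 ± 0.30 (edgeR adjusted p = 0.0125). Snora57, also without an annotated host, had medians of 54.8 and 44.4 CPM and a log2 change of -0.67 ± 0.22 (edgeR adjusted p = 0.0126). The 3 tested members not called were Snora31 with -0.12 ± 0.16, Snora23 with 0.41 ± 0.25 and Snora20 with 0.39 ± 0.42. Snora31, the most abundant, had nearly equal medians of 279 and 291 CPM.

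**Figure D2:**
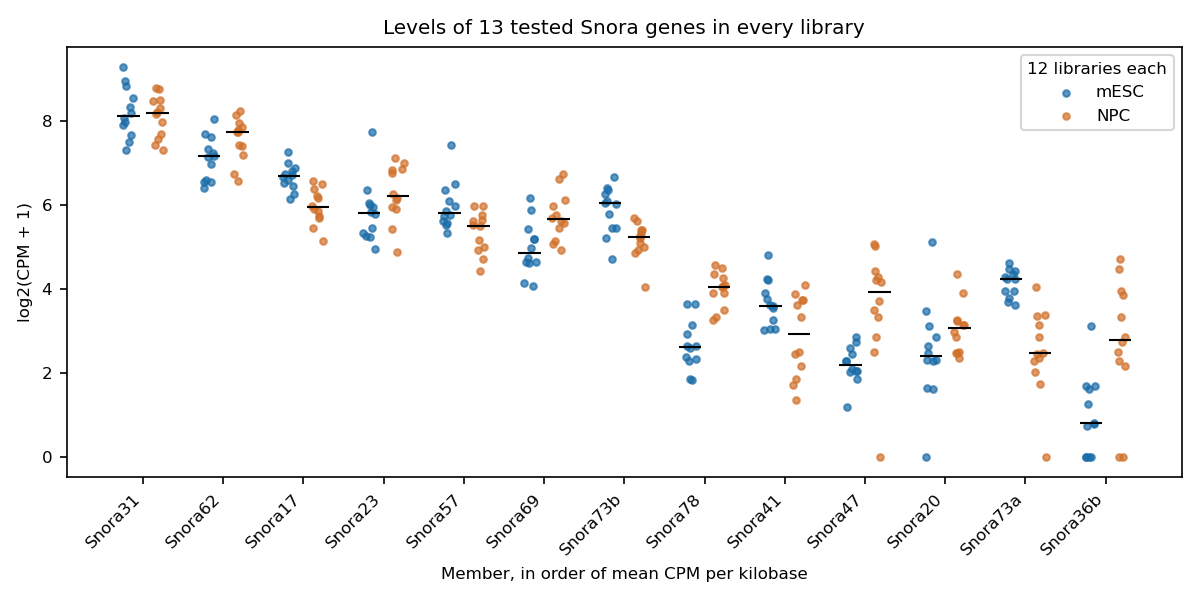
Level of each of the 13 Snora genes that passed the filter, as log2(CPM + 1), in 12 mESC and 12 NPC libraries, with black lines at the medians. Snora78 and Snora47 sit higher and Snora73a lower in most NPC libraries, and the 2 cell types overlap for all 13.

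The scale mattered for the smaller changes. With library totals, and with TMM factors from the other snoRNAs, the median change of all genes moved by 0.34 and 0.37 on the log2 scale. The calls over all genes turned toward higher in NPC, from 275 higher and 253 lower to 350 and 159 with library totals and to 362 and 157 with the other snoRNAs. The members turned the same way, to 5 higher and 1 lower in each, in place of 4 and 5. Snora73b, Snora17, Snora41 and Snora57 kept their direction but lost their call in both, and Snora23 was called higher. Snora31 changed sign, to 0.20 and 0.24. Snora78, Snora47, Snora69 and Snora62 stayed called higher and Snora73a called lower under every scaling run.

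The mESC libraries differ along a replicate axis that coincides with library total. In the 5 genotypes other than Q20, totals were 2134729 to 2360434 in first and 642384 to 1149003 in second replicates. The Q20 libraries had 1795879 and 1901042. The part of library total in the axis was not tested. Across 1766 genes, the replicate differences of the 5 genotypes other than Q20 correlated by 0.41 to 0.54. Of 13 members, Snora73b (mean 40.1 CPM in first and 81.8 in second replicates), Snora69 (24.6 and 44) and Snora62 (135 and 179) were higher in the second replicate in 5 of 5 genotypes. Snora36b was lower in 5 of 5. The share of all genes that differed in 1 direction in 5 of 5 was not computed. NPC was therefore also set against each side of the axis alone: the first side (first replicates and both Q20 libraries) and the second. All 9 calls held on the first side. The second-side fit held no Q20 libraries of either cell type, so its NPC libraries differed too. On the second side 6 held, and Snora62 (0.09), Snora69 (0.50) and Snora57 (-0.43) were not called. Snora62 also lost its call when only the Q20 libraries were left out, so the part of the mESC side in its loss was not tested. Snora73b fell by 0.45 on the log2 scale against the first side and by 1.24 against the second. A term for the axis was also fitted, with mESC taken at the level of the first side. This fit is thus not a check apart from the first side, nor an average over both sides. With the term the Snora73b change was -0.29 (edgeR adjusted p = 0.15) and not called. In genotype comparisons with the term, Q20 mESC was set against the first-side level of the other genotypes. Snora78, Snora47, Snora73a, Snora17 and Snora41 were called on both sides and with the term.

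**Figure D3:**
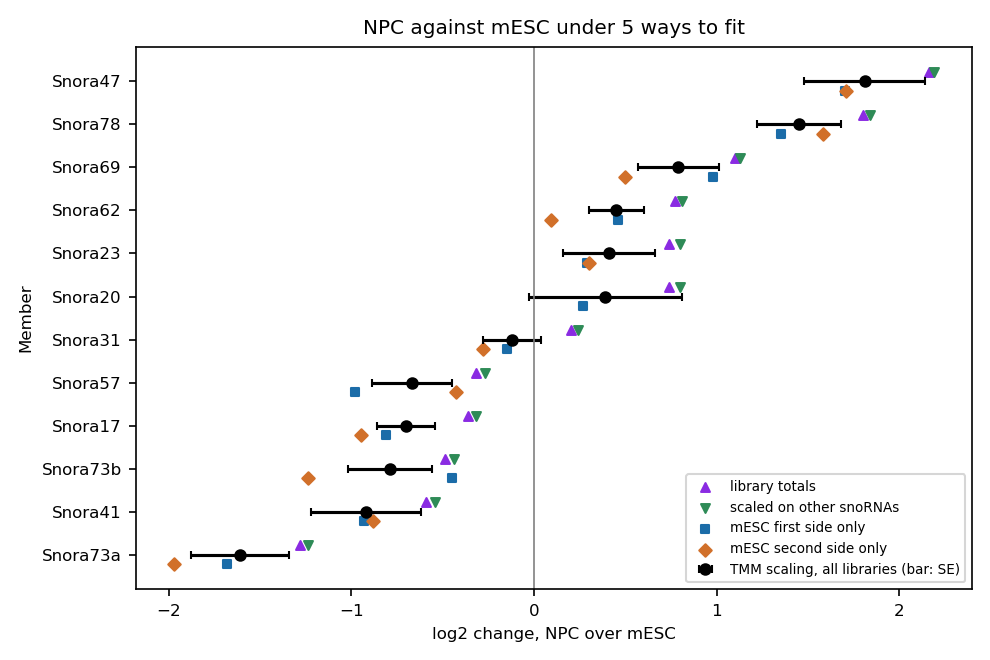
log2 change of 12 Snora genes in NPC over mESC with TMM scaling and all libraries (black, bars: SE), with library totals, scaled on other snoRNAs, and against each side of the mESC replicate axis alone. Snora47, Snora78 and Snora73a keep to their side of 0 by more than 1 in all 5, and Snora31 lies near 0 and changes side with the scaling. Snora20 has no point for the second side, and the second-side fit leaves out the Q20 libraries of both cell types.

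The Q50 mESC libraries were high for several members. Q50 mESC replicate 1 had the highest CPM of all 12 mESC libraries for 6 of 16 detected members, Snora17, Snora20, Snora23, Snora36b, Snora41 and Snora57. Snora23, in an intron of Ipo7 (importin 7), had 466 counts there against at most 101 in the other 11 libraries, or 211 CPM against a median of 54.4. Snora57 had 171 CPM against a median of 53.2. Q50 mESC replicate 2 had 36.6 CPM of Snora23, within the range of the other genotypes, but had the highest CPM for 3 other members. Members held 0.147 and 0.14% of counts in the Q50 mESC libraries, against 0.0352 to 0.0966% in the other mESC libraries. The share of all genes highest in these libraries was not computed. Snora47, Snora73b and Snora78 were below the median of the others in replicate 1. Without replicate 1, Snora23 was called higher in NPC (0.71, edgeR adjusted p = 0.00509). Snora20 could not be fitted without replicate 1, because Q50 mESC replicate 2 had 0 counts.

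**Figure D4:**
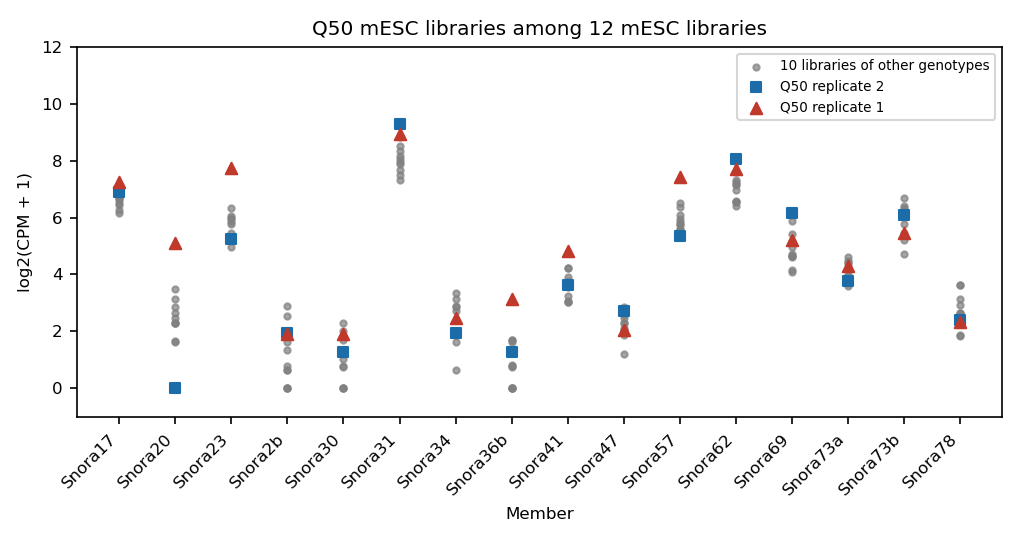
Level of 16 detected Snora genes, as log2(CPM + 1), in the 12 mESC libraries, with Q50 replicate 1 (triangles) and Q50 replicate 2 (squares) set apart from the 10 libraries of other genotypes (grey points). Replicate 1 is the highest library for 6 of the 16 genes and replicate 2 for 3.

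The second comparison asked whether Htt genotype went with member levels in NPC, where 10 members were tested. The edgeR test for any difference among the 6 genotypes called 1 member, Snora62, against 37.2% of 441 genes. In WT NPC Snora62 had 169 and 212 CPM, in KO 213 and 246, in Q20 144 and 171, in Q50 231 and 219. The Q92 libraries had 302 and 283 CPM, and the Q111 libraries 93.5 and 105. The Q92 libraries were the highest of the 12 and the Q111 libraries the lowest, so the knock-in lines did not follow repeat number. The adjusted p was 0.000746 (edgeR), and Snora62 stayed called under every alternative and with each library left out (edgeR or DESeq2 adjusted p from 1.64e-05 to 0.0112).

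Against WT, Snora62 was higher in Q92 by 0.92 ± 0.23 on the log2 scale (edgeR adjusted p = 0.012) and lower in Q111, with a log2 change of -0.81 ± 0.25 (edgeR adjusted p = 0.0431). These comparisons share the WT libraries. Snora31 was lower in Q92, with 170 and 190 CPM against 437 and 433 in WT, a log2 change of -0.97 ± 0.28 (edgeR adjusted p = 0.0255). At an unadjusted p of 0.05 in edgeR there were 3 of 10 members for Q92, against 163 of all 441 genes. For Q111 there were 5 (Snora23, Snora31, Snora36b, Snora47 and Snora62, each lower), against 113 of 441. The 2 members called for Q92 compare with 18.8% of all genes called, and the 1 for Q111 with 10.9%. Each of these 3 calls was lost in some fits with a single library left out, for Q111 also with libraries outside the comparison, where the value hardly moved. For Q92, both calls were lost without WT replicate 1 (0.74 and -0.99), without Q92 replicate 1 (0.88 and -0.89) or without Q92 replicate 2 (0.97 and -1.05, Snora62 and Snora31 in turn). For Q111, the Snora62 call was lost when any 1 of 9 libraries was left out: WT replicate 2 (-0.61), either Q20 library (-0.81 and -0.82), either Q50 (-0.81 each), either Q92 (-0.81 each) or either Q111 (-0.82 and -0.80). The sign held each time.

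No member was called in edgeR for KO against WT in NPC (1.36% of all genes called), for Q20 (12.7%) or for Q50 (6.58%). At an unadjusted p of 0.05 in edgeR there were 0, 3 and 0 members, against 51, 126 and 70 of all 441 genes. DESeq2 called 0, 1 (Snora31) and 0. The slope on repeat number over the 8 knock-in NPC libraries called 0 of 9 members in edgeR (6.45% of 403 genes) and 0 in DESeq2. At the unadjusted level there was 1 member, against 71 of all 403 genes. Snora36b, chosen after its values were seen, had 0 counts in both Q111 NPC libraries and 9 and 7 in WT. It was not called (edgeR adjusted p = 0.0527). It was called with DESeq2 size factors in edgeR (adjusted p = 0.0457) and with 1 of 4 libraries left out: KO replicate 1 (edgeR adjusted p = 0.0307), KO replicate 2 (0.0368), WT replicate 2 (0.045) or Q50 replicate 2 (0.0492).

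**Figure D5:**
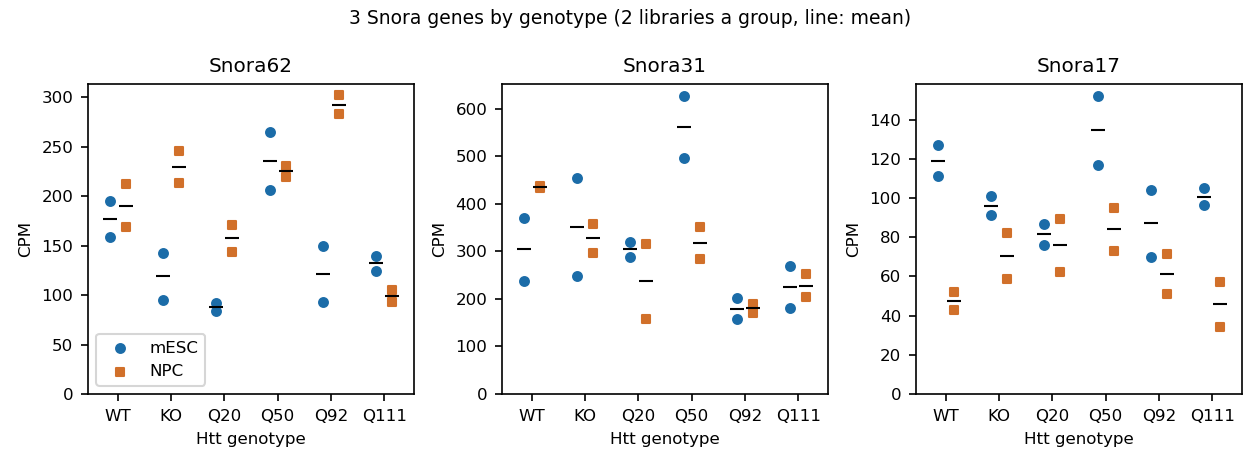
CPM of Snora62, Snora31 and Snora17 by Htt genotype in mESC (circles) and NPC (squares), 2 libraries a group with a line at the mean. In NPC, Snora62 is highest in Q92 (302 and 283) and lowest in Q111 (93.5 and 105), while Snora31 is highest in WT.

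In mESC, 13 members were tested and none was called by edgeR in any genotype comparison. The backgrounds were as low: 0.0566% of 1766 genes for any difference and for Q20 against WT, and 0% for KO, Q50, Q92 and Q111 against WT and for the slope. At an unadjusted p of 0.05 in edgeR there was 1 member for any difference (Snora31), 1 for Q20 (Snora62), 1 for the slope (Snora31) and 0 for the others. Over all genes this held for 62 of 1766, 88 of 1766 and 48 of 1487 in turn, and for 18 to 66 of 1766 in the others. DESeq2 called 0 members in each. The mESC replicates spread widely: Snora31 had 249 and 455 CPM in KO and 370 and 238 in WT. With the replicate axis as a term, 2 members, Snora20 and Snora31, were called for any difference in edgeR (adjusted p = 0.0147 and 0.011). That fit set Q20 against the first-side level of the other genotypes, and 65 of all 1766 genes were called in place of 1. Snora20 had 74 counts in Q50 replicate 1, 0 in Q50 replicate 2 and at most 14 in the other mESC libraries.

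Whether the genotype differences depended on cell type was tested directly. The edgeR test called 0 of 13 members (2.10% of 904 genes), and DESeq2 called 0. At an unadjusted p of 0.05 in edgeR there were 2 members, against 95 of all 904 genes. Snora62 and Snora78 each had an unadjusted p of 0.021 and an adjusted p of 0.352 in edgeR. Snora62 was called with the mESC axis term (edgeR adjusted p = 0.022) and with library totals (edgeR adjusted p = 0.0459). The difference in slope called 0 of 11 members in edgeR (1.51% of 663 genes) and 0 in DESeq2. At the unadjusted level there were 0 members, against 73 of all 663 genes. Whether the Snora62 differences depend on cell type thus changed with the scaling and the axis term.

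Other genes of the pathway were thinly covered in these small RNA libraries. All 4 core protein genes (Dkc1, which encodes dyskerin, Nop10, Nhp2 and Gar1) had counts but 0 of 4 passed the filter, as did 0 of 2 assembly factors (Naf1 and Shq1). The telomerase RNA gene Terc, an H/ACA RNA too, had 0 counts. Of the box C/D core protein genes 1 of 4 was tested, Nop58, with a log2 change of -2.13 in NPC (edgeR adjusted p = 1.29e-05). Among 32 host genes, 12 were tested, and 7 were called lower and 0 higher, against 28.0% lower and 30.4% higher of all genes. With library totals, and with scaling on other snoRNAs, 2 host genes were called lower and 0 higher. Host and member were both tested in 3 cases. Eef1b2 and its Snora41 both fell, by 0.68 and 0.92 on the log2 scale, and Ipo7 (-0.04) and Tcp1 (-0.09) were not called, nor were Snora23 and Snora20 in their introns. Reads of host genes here are short fragments, not a measure of the mRNA.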

How the data were processed

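Small RNA libraries were sequenced from one end over 50 bases (Illumina HiSeq, per the labels). Per the submitters' processing notes the authors used CASAVA 1.8, STAR and HTSeq on GRCm38.p6. Trimming, strand and the treatment of multiple or overlapping matches are not given in the sources used here. The authors deposited whole-number counts per Ensembl gene, not normalized. Symbols, coordinates and sequences came from GENCODE M21 on the same build. The sequence and position of Snora62 are not reported here.

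Counts were tested with edgeR 4.0.16 (glmQLFit, glmQLFTest, TMM scaling) in R 4.3.3, keeping genes by filterByExpr (minimum count 10, minimum total 15), with Benjamini-Hochberg adjustment over all genes tested. DESeq2 1.42.0 was an alternative, among other scalings, filters and left-out libraries. The code was tested on simulated data. Comparisons within a cell type used its 12 libraries.

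Replicate numbers come from the labels. In mESC 10 of 15 pairs of groups had a correlation of deviations over 0.1, in NPC 4 of 15. Since not every pair did, the numbers were not taken to pair samples, and the axis shared by the mESC groups other than Q20 was fitted as an alternative. Replicates differed by a chi-square of 3.16 to 202 per degree of freedom.

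Members and lists were chosen with earlier results of these data known. Named genes were the 10 members highest per kilobase, those called with a log2 change of at least 1 and a mean of at least 10 CPM or called for any genotype difference, and members sharing their host or RNA class (E1, E2).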

Additional observations from a re-analysis of the deposited data

How the results depend on the processing

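The limits are depth and 2 libraries a group: 0 counts in a library still allow up to 3 counts there. Of 501 values of single members under alternatives, 450 kept direction and side of the threshold, 43 lost the call, 3 gained it and 5 changed sign. Those 5 were Snora31 in NPC against mESC with library totals (0.20), scaling on other snoRNAs (0.24), the mESC axis term (0.01) and wild-type libraries only (0.66), and Snora20 without the Q20 libraries (-0.03). None of these 5 passed the test.

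Members called in NPC against mESC numbered 3 with wild-type libraries only, where 10 were tested on 4 libraries, and 8 to 10 with 1 library left out. The 3 with wild-type libraries only were Snora47, Snora78 and Snora36b, and Snora36b was not among the 9 calls of the report. Snora17, Snora57, Snora69, Snora73b and Snora62 (0.23) were not called there. Snora62 also lost its NPC against mESC call without Q92 mESC replicate 1 (0.30), without the Q20 libraries (0.25) and with no filter. Snora41 lost its call with no filter, where the values are those of the report and more genes are tested. A group at 0 left no fit for Snora47 without Q111 NPC replicate 2, Snora73a without Q50 NPC replicate 1, and Snora20 without Q50 mESC replicate 1 and on the second side. For any difference in NPC, 2 members were called with DESeq2 size factors, the DESeq2 test, the replicate block or without the Q20 libraries (Snora31 joining Snora62), and 1 to 2 with a library left out. For Q92 against WT, the count was 1 with library totals or scaling on other snoRNAs, 0 with no filter and 0 to 2 with a library left out. For Q111 it was 2 with DESeq2 size factors or test, 0 with scaling on other snoRNAs, no filter or the 4 libraries compared, and 0 to 2 with a library left out. Q20 in NPC gave 1 with DESeq2 and 0 to 1 with a library left out. Genotype by cell type gave 1 with library totals or the mESC axis term, and any difference in mESC 2 with that term, when 65 of all genes were called in place of 1. Snora36b was the member gained for Q111 with DESeq2 size factors, and Snora31 with the DESeq2 test. The replicate block moved no other count of members. Counts over all genes ranged, without leaving out single libraries, from 123 to 1352 in NPC against mESC (528 in the report), 88 to 184 for any difference in NPC (164), 0 to 18 for KO (6), 29 to 67 for Q20 (56), 0 to 34 for Q50 (29), 32 to 92 for Q92 (83), 9 to 60 for Q111 (48) and 9 to 51 for the slope (26) in NPC, 0 to 92 for genotype by cell type (19), 0 to 30 for slope by cell type (10), and 1 to 35 for Q20 in mESC (1). Both one-sided mESC fits were chosen after seeing the data. The causes were not tested.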

Other observations

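The remaining detected members, named after their values were seen, were low. Snora34, in an intron of Kansl2, had 0.561 to 9.19 CPM in mESC (median 3.7) and 0 to 13 in NPC (median 6.47), with 4 NPC libraries above every mESC library. Snora2b, which overlaps an exon of the same gene, had 35 counts in all, and Snora30 had 37. Snora36b was at 0 in 4 mESC and 2 NPC libraries, with medians of 0.741 and 5.95 CPM, and 5 NPC libraries exceeded every mESC library. An additive edgeR model of cell type and genotype called it higher in NPC (adjusted p = 0.00014), as did wild-type libraries alone (edgeR adjusted p = 0.0056).

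Per 1000 counts of Snord-named genes, members had a median of 1.77 counts in mESC (0.992 to 3.66) and 3 in NPC (1.51 to 3.74). In NPC, Snora17 was lower in the second replicate in 5 of 5 genotypes other than Q20 (means of 71.5 and 52 CPM), the only one of 13 members to differ in 1 direction throughout. The share of all genes doing so was not computed, so this is not taken as particular to Snora17.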
